A study of Mus musculus with 70 samples.

Results

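Neural stem cells (NSC) of the mouse dorsal cortex were compared between embryonic days E13.5 and E14.5. Of 23078 genes in the deposited table, the comparison took the 13481 with a mean of at least 1 TPM (a length-corrected transcript abundance) at E13.5 or at E14.5. Values just inside and outside this limit were those of Gm4969 (1.002 TPM at E13.5) and Lrrc17 (0.999 TPM at E14.5). There were 4 NSC libraries at E13.5 and 3 at E14.5. All were wild-type C57Bl/6 embryos carrying the Hes5::GFP transgene, a fluorescent reporter of the Notch effector Hes5. GFP-positive cells were sorted from microdissected dorsal cortices, and a stable reporter protein can also mark recent progeny of the cells that made it. Basal progenitors (BP), with 3 libraries at each of the same days, came from wild-type C57Bl/6 embryos carrying Tbr2::GFP. The series holds 70 libraries in all, 33 of them NSC. The labels do not state that replicates were separate embryos or litters, so the spread that the p-values rest on may be technical.

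Cortical neural stem cells, or radial glia, line the ventricle. They divide, signal to one another through Notch, and give rise to neurons directly or through basal progenitors. As neurogenesis proceeds the cell cycle of these progenitors lengthens, the neurons made shift from deep to upper layers, and early RNA-binding and chromatin proteins such as Hmga2 give way to later ones such as the nuclear factor I family.

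Hes5, the gene of the sorting reporter, stood at 175.9, 123.2, 116.6 and 121.6 TPM in the E13.5 libraries and at 124.5, 97.48 and 98.76 TPM in the E14.5 libraries. The groups overlapped, and the log2 difference of -0.32 ± 0.20 (SE) did not pass the test (limma, adjusted p = 0.21). The summed level of the 27 radial glia and stem cell genes was 4428 to 5415 TPM at E13.5 and 3572 to 6433 TPM at E14.5, against 951 to 1093 TPM in BP at the same days. Eomes, the gene encoding Tbr2 that marks basal progenitors, was also present in these NSC libraries, at 325.6 to 578.5 TPM at E13.5 and 300.9 to 498.2 TPM at E14.5. In bulk RNA, fewer cells of a type and less RNA per cell cannot be told apart.

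Libraries differed in ways that touch the results. E14.5 replicate 3 stood apart, with correlations of 0.955 to 0.961 to the E13.5 libraries against 0.969 to 0.977 for the other two E14.5 libraries. Its summed level of 20 postmitotic neuron genes was 7076 TPM, against 4377 and 5037 TPM in the other E14.5 libraries and 3915 to 4534 TPM at E13.5. It was not alone in varying. Array weights, which are lower for more variable libraries, were 0.251 for E13.5 replicate 1, 0.317 for E14.5 replicate 1 and 0.371 for E14.5 replicate 3. The other libraries had weights of 1.248 to 1.736. Summed endothelial and pericyte genes were 7.287, 49.64 and 32.92 TPM at E14.5 and 4.715 to 6.696 TPM at E13.5. All 7 libraries are labelled female, but Y-linked RNA summed to 85.05, 2, 0.2667 and 65.13 TPM at E13.5 and to 99.57, 138 and 129 TPM at E14.5. Fits with a sex term, and with only E13.5 replicates 1 and 4, which hold Y-linked RNA, are given further below. Otherwise the part of these library differences in the results was not tested. Where list counts below change by over 1.5 times without 1 library, the count without at least 1 such library is given. TPM keep no sequencing depth, so depth is unknown.

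Between E13.5 and E14.5, 5501 of 13481 genes were called (40.8%) by limma at an adjusted p below 0.05. Of these, 2816 were higher at E14.5 (20.9% of genes tested) and 2685 lower (19.9%), and 420 differed at least 2-fold (3.12%), 255 of them higher (1.89%) and the others lower (1.22%). All 4 E13.5 libraries lay below all 3 E14.5 libraries for 2264 genes (16.8%) and above them for 2583 (19.2%). The median log2 difference over all genes was 0.01, so the counts below are read against about 1 gene in 5 called in each direction. Fitted on the 7 libraries alone, 3549 genes were called. Without 1 library, 1943 to 3000 genes were higher and 2031 to 2708 lower, so list counts from such fits have another background. A list count from such a fit of about 1 gene in 5 or fewer lies near or below background. It is not a result about the list. With E14.5 replicate 1 alone fewer genes were called in all, and list counts from that fit are not comparable with the shares above.

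The clearest group change was in cell division genes. Of 28 genes of DNA replication and the G1/S transition, 25 fell and none rose, with a median log2 difference of -0.80. Of 26 mitosis genes, 20 fell and 2 rose, with a median of -0.82. The sequences upstream of 4 genes that fell are shown first, because these gene groups are textbook targets of cell cycle promoter elements. They are the 2 genes of each list with the largest falls among those whose window holds the motif. Each is 250 bases before the RefSeq transcript start (build GRCm38.p6), on the strand of the gene. Capitals mark an E2F string (TTTCCCGC, TTTCGCGC, TTTGCCGC or TTTGGCGC on either strand) in the replication genes, and a cell cycle homology region string (CHR, TTTGAA on either strand) in the mitosis genes.
Cdc6 (chr11:98907901-98908150, plus strand): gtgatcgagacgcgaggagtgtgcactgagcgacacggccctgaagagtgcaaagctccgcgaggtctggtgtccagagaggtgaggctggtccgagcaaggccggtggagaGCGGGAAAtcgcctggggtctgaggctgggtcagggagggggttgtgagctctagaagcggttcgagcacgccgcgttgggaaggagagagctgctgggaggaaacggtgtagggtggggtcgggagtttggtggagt
Uhrf1 (chr17:56304063-56304312, plus strand): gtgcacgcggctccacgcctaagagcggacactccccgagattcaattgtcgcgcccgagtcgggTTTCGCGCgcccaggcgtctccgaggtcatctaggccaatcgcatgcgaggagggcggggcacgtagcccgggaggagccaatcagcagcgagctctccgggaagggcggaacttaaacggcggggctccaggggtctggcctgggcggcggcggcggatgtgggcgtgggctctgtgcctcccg
Ube2c (chr2:164769679-164769928, plus strand): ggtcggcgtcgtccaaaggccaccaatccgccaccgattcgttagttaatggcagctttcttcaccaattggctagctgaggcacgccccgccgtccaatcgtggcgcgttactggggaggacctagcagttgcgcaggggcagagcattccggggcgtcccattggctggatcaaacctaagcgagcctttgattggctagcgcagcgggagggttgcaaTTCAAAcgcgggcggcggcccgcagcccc
Cdk1 (chr10:69352913-69353162, minus strand): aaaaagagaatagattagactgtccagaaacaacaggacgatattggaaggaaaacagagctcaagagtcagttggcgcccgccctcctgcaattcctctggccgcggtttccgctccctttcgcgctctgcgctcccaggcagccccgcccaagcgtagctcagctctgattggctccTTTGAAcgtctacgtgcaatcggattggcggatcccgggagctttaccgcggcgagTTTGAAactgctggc

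In these 250-base windows the E2F strings were found for 8 of 24 replication genes with a window (33.3%), 1 of 23 mitosis genes (4.35%) and 2.16% of all 27025 genes with a window. TTTGAA was found for 9 of 23 mitosis genes (39.1%), 2 of 24 replication genes (8.33%) and 18.3% of all genes. CCAAT was found for 20 of 23 mitosis genes (87.0%), 16 of 24 replication genes (66.7%) and 37.5% of all genes. CACGTG was found for 0 of 23, 3 of 24 and 6.86%. Over the 9704 tested genes with a window the shares were 3.93% for E2F strings, 12.3% for TTTGAA, 41.2% for CCAAT and 9.79% for CACGTG. The search was run over 3 windows and 5 motif sets in all, and the choice of window matters for the mitosis genes. With 300 bases, which add 50 after the start, TTTGAA was found for 18 of 23 mitosis genes (78.3%) against 20.2% of all and 13.7% of tested genes, and E2F strings for 11 of 24 replication genes (45.8%) against 2.6% and 4.73%. With 280 bases these were 15 of 23 and 9 of 24, and adding TTCGAA to the CHR set gave 10, 17 and 19 of 23 mitosis genes at 250, 280 and 300 bases. A match is a description of these letters and not a bound site.

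Among replication genes, Cdc6, which loads the replicative helicase, stood at 17.52, 21.22, 18.72 and 22.75 TPM at E13.5 and at 8.071, 6.635 and 6.012 TPM at E14.5. The groups did not overlap, and the log2 difference was -1.42 ± 0.15 (SE, limma adjusted p = 4.05e-10). Rrm2, a subunit of ribonucleotide reductase, went from 503.1 to 569.5 TPM at E13.5 to 232.1, 201.1 and 171.7 TPM (-1.41 ± 0.16). Uhrf1, which carries DNA methylation through replication, went from 182.2 to 213.6 TPM to 94.44, 77.03 and 64.43 TPM (-1.34 ± 0.15). Every E14.5 library lay below every E13.5 library for these genes. Helicase subunits fell as well, Mcm2 by 1.04 and Mcm3 by 1.05 on the log2 scale, while the clamp Pcna fell by 0.67.

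The summed level of the replication list was 3708 to 3919 TPM at E13.5 and 2451, 2100 and 1786 TPM at E14.5. All 3 E14.5 libraries were below every E13.5 library. Leaving out each library in turn left 24 to 26 genes lower, and with E14.5 replicate 1 alone 18 were lower. A permutation over the 7 libraries has 35 arrangements and cannot give a two-sided p below 0.0571.

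Mitosis genes showed the same separation. Ube2c, the ubiquitin-conjugating enzyme of the anaphase-promoting complex, stood at 344.1, 308.1, 268.4 and 289 TPM at E13.5 and at 177.1, 131.4 and 113.2 TPM at E14.5 (log2 difference -1.12 ± 0.19, limma adjusted p = 4.92e-06). Cdk1, the mitotic kinase, went from 140.1 to 180.3 TPM to 84.37, 80.06 and 58.59 TPM (-1.08 ± 0.19), and its cyclin Ccnb1 fell by 1.14. Tpx2, a spindle assembly factor, fell by 1.15. The 2 that rose were Kif20b (0.67 ± 0.25) and Cenpf (0.59 ± 0.24), and both lost the call without 1 library: Kif20b in 4 and Cenpf in 5 of 7 such fits. Mki67, the common proliferation marker, was at 43.81 to 95.08 TPM and at 75.76 to 82.25 TPM, overlapping, and did not pass the test (0.35 ± 0.24, adjusted p = 0.258). With E14.5 replicate 1 alone, 9 mitosis genes were lower.

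Among 15 G1 cyclins and cell cycle inhibitors, 7 fell and 2 rose, or 6 and none without E14.5 replicate 2. Ccnd1, the cyclin D that drives G1 progression, stood at 94.48, 97.89, 69.76 and 92.78 TPM and then at 35.03, 30.54 and 26.62 TPM (-1.50 ± 0.18, limma adjusted p = 1.16e-08). Ccnd2 went from 297.8 to 429.9 TPM to 183.5 ± 28.55 TPM (SD, n = 3), with a log2 difference of -1.08 ± 0.22 (SE). Neither gene's libraries overlapped between days. The inhibitor Cdkn1b rose by 0.22 ± 0.09, a call lost without any of 3 single libraries, and Cdkn1c did not pass the test (-0.15 ± 0.15).

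**Figure D1:**
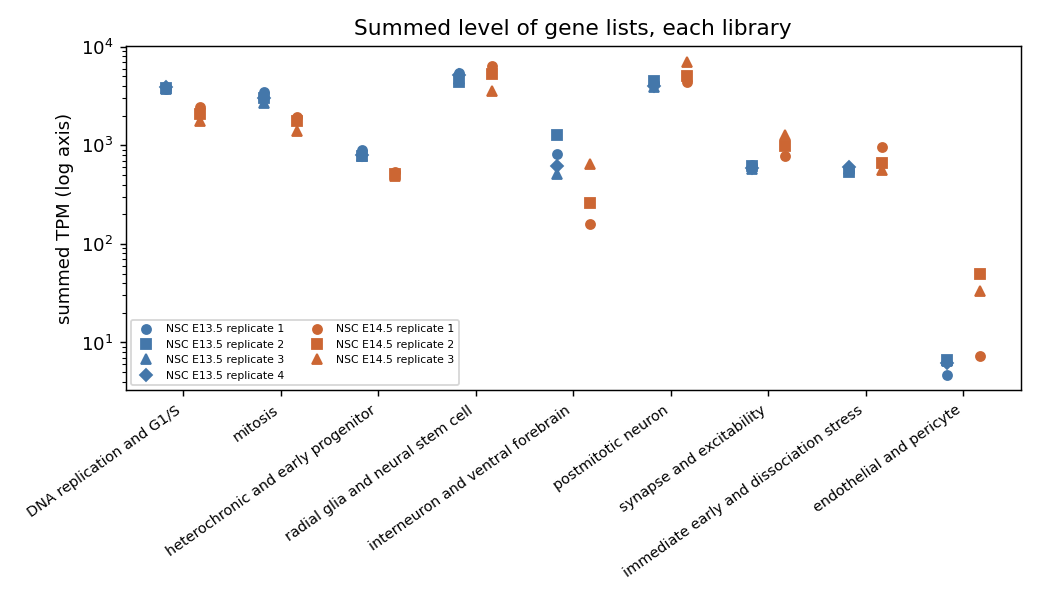
Summed TPM (log axis) of 9 gene lists in each of the 4 E13.5 (blue) and 3 E14.5 (orange) NSC libraries, with a marker shape per replicate. The replication and mitosis sums of all 3 E14.5 libraries lie below those of all 4 E13.5 libraries. The postmitotic neuron, ventral forebrain, radial glia and immediate early sums overlap between days.

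Stem cell and Notch genes changed less evenly. Of 27 radial glia genes, 11 fell and 4 rose. Without E14.5 replicate 3, 5 fell and 4 rose, near the share over all genes. Sox1 stood at 64.56 to 106.2 TPM and then at 44.11, 37.08 and 43.37 TPM, a fall of 0.90 without overlap, and Sox2, the pluripotency and neural progenitor factor, fell by 0.65. Sox9, Sox3, Hes1, Nes and Id4 also fell, by 0.69, 0.78, 0.96, 0.55 and 0.74, but each lost its call without E14.5 replicate 3. Pax6 and Vim did not pass the test (-0.16 ± 0.18 and -0.24 ± 0.18). Against these, Fabp7, a fatty acid binding protein of radial glia, rose from 619.2 to 927.6 TPM to 2111, 1558 and 1023 TPM (0.99 ± 0.26). With only E13.5 replicates 1 and 4 its difference was 0.72 and did not pass the test (limma adjusted p = 0.0698). Tnc, Mfge8 and the outer radial glia gene Hopx were at log2 differences of 1.13 (called), 0.98 (called) and -0.48 (not called).

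Of 23 Notch pathway genes, 12 fell and 2 rose, or 7 and 2 without E14.5 replicate 3. The ligand Dll3 stood at 49.46 to 78.24 TPM and then at 31.09, 25.4 and 30.61 TPM (-1.02 ± 0.15), and Dll1 fell by 0.58. The receptors Notch1 and Notch3 fell by 0.76 and 0.97, whereas Notch2 did not pass the test (-0.37 ± 0.19), though it did without E13.5 replicate 1 (-0.50). The dorsal proneural factors Neurog2 and Neurog1 did not pass the test (-0.25 ± 0.19 and -0.43 ± 0.23).

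Signalling genes were called lower in varying shares. Of 26 Wnt pathway genes, 16 fell and none rose, or 10 and none without E14.5 replicate 3. Wnt8b, a ligand of the cortical hem, went from 5.79 to 11.13 TPM to 2.919, 3.346 and 1.021 TPM (-1.54 ± 0.22), and the Wnt effector Lef1 and feedback gene Axin2 fell by 0.85 and 0.58. Of 16 genes of FGF signalling and its feedback, 7 fell and none rose, though 1 rose without E13.5 replicate 1 or without E14.5 replicate 1. Fgf15, a secreted FGF of early progenitors, stood at 31.31, 29.68, 22.23 and 13.78 TPM and then at 3.929, 4.079 and 3.989 TPM (-2.27 ± 0.36, limma adjusted p = 2.18e-06). Its E14.5 libraries were nearly equal and all below E13.5. Of 10 Hedgehog genes 6 fell, or 2 without E14.5 replicate 3, and of 14 Hippo genes 5 fell. With only E13.5 replicates 1 and 4, 3 Hedgehog and 2 Hippo genes fell. Of 16 BMP and Id genes 5 fell and 1 rose, or 2 and 2 without E14.5 replicate 3. Without E13.5 replicate 1 or without E13.5 replicate 4, 3 fell.

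Genes tied to early developmental timing fell together. Of 14 tested heterochronic and early progenitor genes, 9 fell and none rose, and leaving out each library in turn left 9 or 10. Hmga2, a chromatin protein that declines as stem cells age, stood at 68.56, 27.45, 23.84 and 45.9 TPM and then at 13.95, 8.879 and 6.227 TPM (-1.93 ± 0.26, limma adjusted p = 1.05e-07). The RNA-binding proteins Igf2bp1, Igf2bp2 and Igf2bp3 fell by 0.98, 0.53 and 0.60. Crabp2, a retinoic acid binding protein, fell by 1.98 and the imprinted gene Dlk1 by 2.06. Lin28b, the repressor of let-7 microRNAs, was at 0.6379 to 3.118 TPM and 0.6399 to 1.785 TPM and did not pass the test (-0.31 ± 0.20). It did so without E13.5 replicate 3 (-0.51) and without E14.5 replicate 3 (-0.55). In the opposite direction, Nfib stood at 155.8 to 188.9 TPM and then at 293.2, 378.2 and 379.7 TPM (1.01 ± 0.21). Nfia and Nfix rose by 0.51 and 0.76, but lost their calls without 1 and 3 of the 7 libraries in turn. Of all 15 genes of this nuclear factor I and glial competence list, 3 rose and 3 fell, near the background share, and 1 fell without E14.5 replicate 3.

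Neuronal genes were called higher in numbers that depended on the E14.5 libraries used. Of 20 postmitotic neuron genes 9 rose and none fell, or 5 and none without E14.5 replicate 3, the library with the highest neuron sum. Of 25 synapse and excitability genes, 19 rose and none fell, with a median of 0.75, or 12 and none without it. With E14.5 replicate 1 alone, some log2 differences were smaller than with all libraries. They were -0.025 against 0.621 for Dcx, 0.152 against 0.827 for Mapt and 0.435 against 0.771 for Gap43. Camk2b and Grin2b were at 0.941 and 0.439, against 1.687 and 1.222. These genes were picked for their smaller differences. Gria2, an AMPA receptor subunit, stood at 16.72, 8.217, 6.894 and 14.08 TPM and then at 41.51, 61.13 and 87.68 TPM (2.38 ± 0.30, limma adjusted p = 2.68e-08). Gabra2, a GABA-A receptor subunit, went from 2.995 to 4.583 TPM to 13.71, 21.58 and 20 TPM (1.97 ± 0.31). For both genes every E14.5 library was above every E13.5 library. Snap25, a vesicle fusion protein, rose by 1.35 ± 0.21. Tubb3 and Stmn2, abundant in young neurons, did not pass the test (0.08 ± 0.13 and 0.26 ± 0.20), though Stmn2 did without E14.5 replicate 1 (0.53).

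Of 15 deep layer genes 9 rose and 1 fell. Without E14.5 replicate 3, 2 rose and 1 fell, near or below the share over all genes. Pcp4 stood at 32.29 to 51.82 TPM and then at 82.64, 108.4 and 80.99 TPM (1.24 ± 0.21). Fezf2 and Bcl11b, which specify subcortical projection neurons, did not pass the test (0.38 ± 0.19 and 0.24 ± 0.26). Of 14 upper layer genes 5 rose and 1 fell. Unc5d, a netrin receptor, went from 6.332 to 11.98 TPM to 22.2, 38.8 and 30.14 TPM (1.60 ± 0.24), while Cux1 fell by 0.41.

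**Figure D2:**
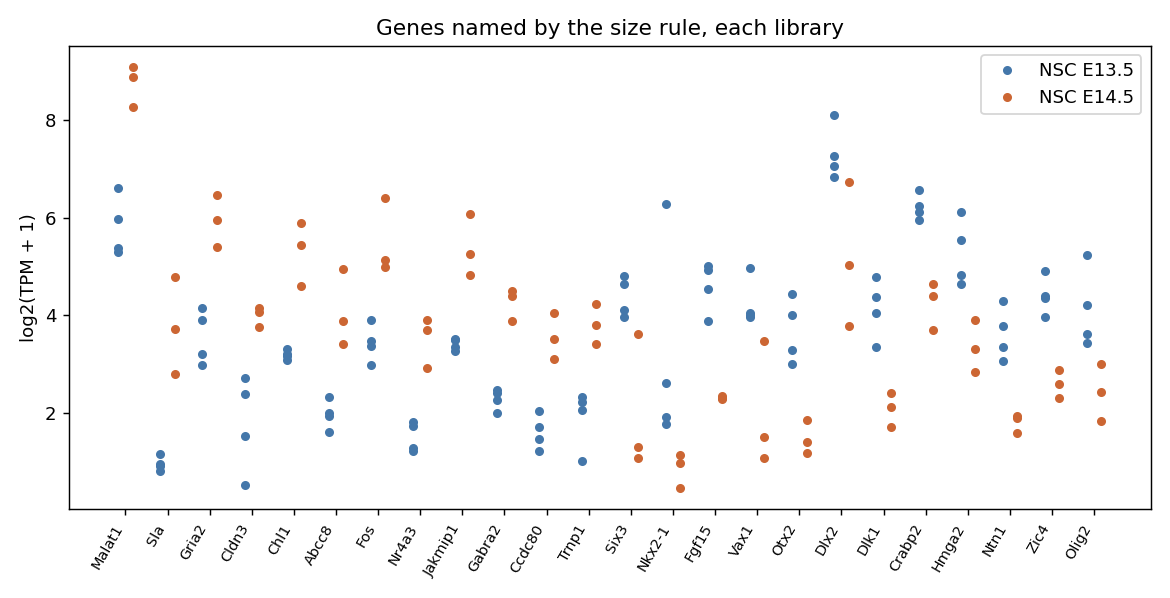
log2(TPM + 1) of the 12 genes with the largest rises and the 12 with the largest falls by the size rule, with 1 point per library in the 4 E13.5 (blue) and 3 E14.5 (orange) NSC libraries. The rule required that the groups not overlap, and the spread among E14.5 libraries is widest for Six3, Vax1 and Dlx2.

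By a size rule on called genes whose libraries did not overlap, the largest rise was that of Malat1, an abundant nuclear noncoding RNA (chromosome 19, 5795690 to 5802672, minus strand, GRCm38). It stood at 61.9, 38.54, 40.9 and 96.38 TPM and then at 308.4, 540.8 and 472.4 TPM (2.93 ± 0.28, limma adjusted p = 5.13e-11). It was at 193.4 to 272.5 TPM at E12.5 and at 57.28 to 111 TPM at E15.5. The other genes chosen for a rise were Sla, Gria2, Cldn3, Chl1, Abcc8, Fos, Nr4a3, Jakmip1, Gabra2, Ccdc80 and Trnp1, with log2 differences from 2.80 down to 1.91. Trnp1, a nuclear protein that regulates progenitor expansion, went from 1.038 to 4.017 TPM to 9.682, 13.06 and 17.94 TPM.

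Of the 12 largest falls, Six3, Nkx2-1, Vax1, Dlx2 and Olig2 are transcription factors of the ventral or anterior forebrain. Of 17 ventral forebrain and interneuron genes, 11 fell and none rose, with a median of -1.05. Fitted on the 7 libraries alone, 6 fell. In that fit Nkx2-1, Dlx1 and Dlx5 lost their calls (limma adjusted p = 0.108, 0.13 and 0.0569). The p-values below are from the main fit, whose spread is shared with groups such as BP, where the summed level was low. Dlx2 stood at 152.2, 272.1, 112.2 and 131.7 TPM and then at 12.73, 31.51 and 104.4 TPM (-2.13 ± 0.42, limma adjusted p = 6.01e-05). Nkx2-1 stood at 5.132, 76.71, 2.78 and 2.453 TPM and then at 0.383, 0.9701 and 1.214 TPM (-2.29 ± 0.54). E13.5 replicate 2 was far above the others for Nkx2-1, and without it the difference was -1.24. The summed ventral level was 514 to 1278 TPM at E13.5 and 157.9, 261.8 and 650.7 TPM at E14.5, which overlap, and 230.1 to 685.9 TPM at E12.5. In BP it was 51.66 to 63.97 TPM over both days. Gad1 and Sst, markers of ventral GABAergic neurons, did not pass the test (-0.63 ± 0.43 and -0.46 ± 0.47), but without E14.5 replicate 3 Gad1 did (-1.50, limma adjusted p = 0.00561). Dlx1 lost its call without E13.5 replicate 2 and without E14.5 replicate 1.

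Other falls chosen by the rule were Fgf15, Otx2, Dlk1, Crabp2, Hmga2, Ntn1 and Zic4. Otx2, a factor of the rostral brain and of choroid plexus, stood at 7.037 to 20.76 TPM and then at 1.67, 2.652 and 1.278 TPM (-2.20 ± 0.35). Of 19 cortical patterning genes 10 fell and 2 rose, or 4 and 2 without E14.5 replicate 3. Emx1, which marks the dorsal cortex, did not pass the test (0.09 ± 0.13).

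Immediate early genes rose in 6 of 15 tested members of a list that also holds dissociation stress genes, or in 3 without E14.5 replicate 1. Fos stood at 6.966, 9.336, 10.14 and 13.96 TPM and then at 84.15, 34.27 and 30.66 TPM (2.08 ± 0.37, limma adjusted p = 1.67e-05). Egr1 rose by 1.86 and Junb by 1.04, while Jun and the heat shock gene Hspa1a did not pass the test (0.02 ± 0.17 and -0.04 ± 0.17). The list sum was 955.4, 663.3 and 564.6 TPM at E14.5 and 531.3 to 598.9 TPM at E13.5, with the highest value in E14.5 replicate 1.

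Markers of blood vessels moved as well, at low levels. Of 10 tested endothelial and pericyte genes 9 rose, or 3 without E14.5 replicate 2. The list sum of E14.5 replicate 1 was 7.287 TPM, against 4.715 to 6.696 TPM at E13.5. Genes were tested if they reached a mean of 1 TPM on either day. Members such as Cldn5 did so only at E14.5, so the filter in part sets this share. Cldn5, a tight junction protein of brain endothelium, was at 0 to 0.8132 TPM at E13.5 and at 0.9382, 12.18 and 9.526 TPM at E14.5. Among 7 tested erythroid genes none was called, though up to 4 were with 1 library left out, and 1 microglial gene of 13 reached the level to be tested and was not called. Of 6 tested meningeal and choroid plexus genes, 2 were lower, and 1 to 4 with 1 library left out.

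**Figure D3:**
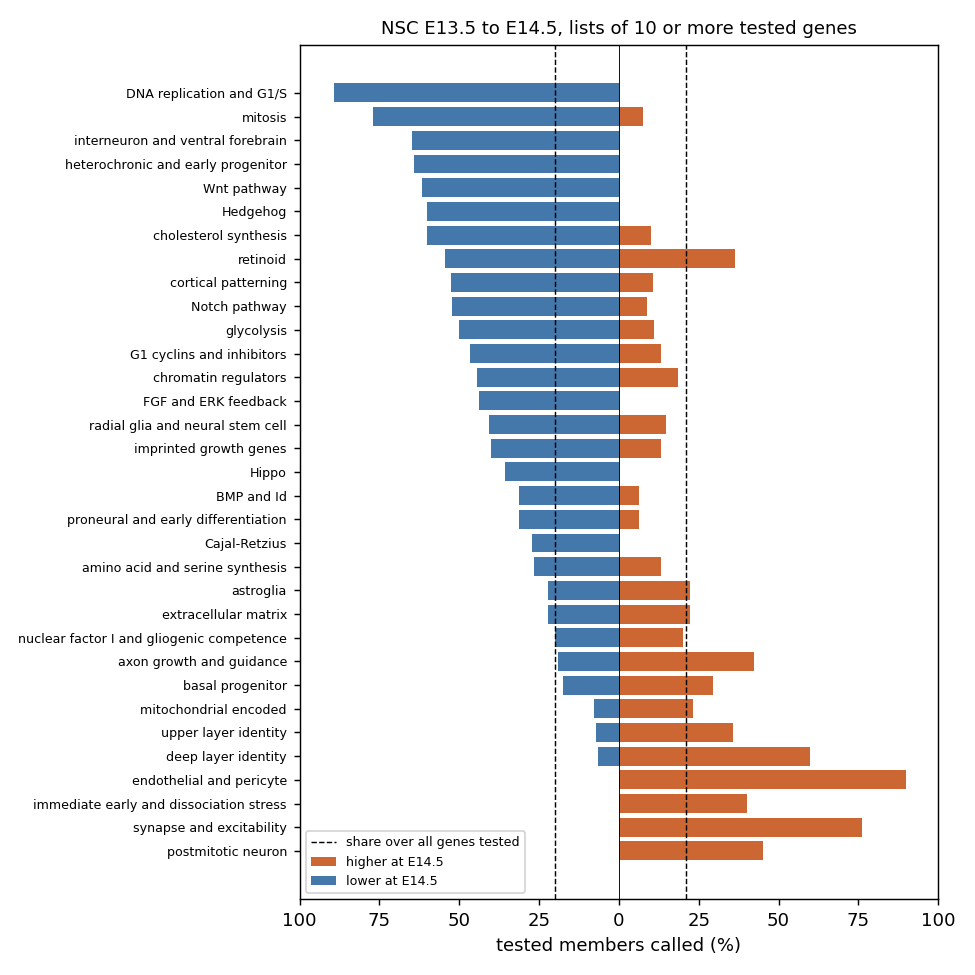
Share of tested members called higher (orange, to the right) or lower (blue, to the left) at E14.5 for each list with 10 or more tested genes, in percent, with dashed lines at the shares over all 13481 genes (20.9% and 19.9%). Among the lists shown, replication and mitosis hold the largest shares lower, and endothelial and synapse genes the largest shares higher. The endothelial share is in part set by the filter, since members such as Cldn5 reached a mean of 1 TPM only at E14.5. Its 9 genes called higher became 3 without E14.5 replicate 2.

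The same day was then compared in BP, which share no library with NSC. In BP 5247 of the same genes were called (38.9%), and 1476 of them were called in the same direction in NSC. That is 26.8% of the NSC calls and 28.1% of the BP calls, while 828 genes (15.1% of NSC calls) were called in opposite directions. The steps of NSC and BP differed for 4612 genes (34.2%), tested as a difference of differences, with 665 at least 2-fold higher in NSC (4.93%) and 271 lower (2.01%). Reporter line and cell type coincide and cannot be told apart.

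Replication and mitosis genes parted in this comparison. Of the 28 replication genes, 5 fell in BP with a median of -0.11, against a background of 16.2% lower, and 24 had a step lower in NSC than in BP, against a background of 18.9%. Mcm2 was 1.02 lower in the NSC step than in the BP step (limma adjusted p = 4.59e-05), with a BP difference of -0.03. Of the 26 mitosis genes, 25 fell in BP with a median of -0.89. The NSC step was lower for 2 and higher for 8, against a background of 15.3% higher. Cdk1 fell by 1.08 in NSC and by 0.70 in BP, a difference of -0.38 that did not pass the test (adjusted p = 0.291). Mki67 fell by 1.00 in BP and its step differed from that in NSC by 1.35 (adjusted p = 0.0029).

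Other groups whose steps differed included synapse genes, of which 13 of 25 had a higher step in NSC, and Wnt genes, of which 12 of 26 had a lower one. Gabra2 rose in NSC and fell by 1.10 in BP, a difference of 3.06 ± 0.45 (limma adjusted p = 2.22e-06). Heterochronic genes fell in both, 9 in NSC and 7 of 14 in BP, with Igf2bp1 at -0.98 and -0.83. The largest differences by rule were Gabra2, Malat1, Zfp946, Zfp942, Zfp386 and Hmgn5 with a higher step in NSC, and Ttr, Grik3, Dlx2, Vax1, Nkx2-1 and Six3 with a lower one. Grik3, a kainate receptor subunit, lost its NSC call without any of 4 single libraries.

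**Figure D4:**
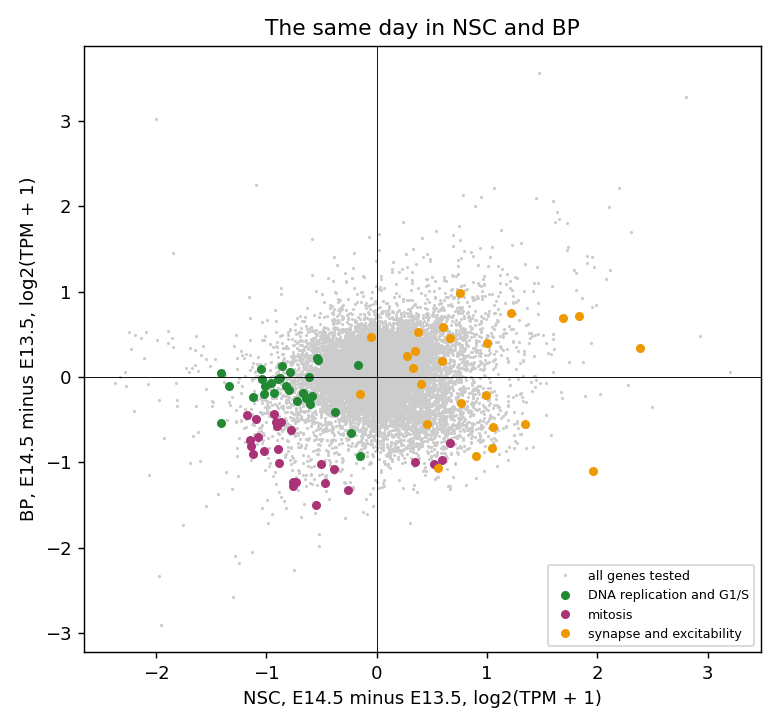
Difference between E14.5 and E13.5 on the log2(TPM + 1) scale in NSC (horizontal axis) and BP (vertical axis), with 1 point per gene for 13481 genes and 3 lists in colour. Replication genes (green) lie left of 0 on the NSC axis and mostly near 0 on the BP axis, and most mitosis genes (purple) lie below 0 on both.

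The day before and the day after give the setting of this step and share libraries with it. From E12.5 to E13.5, when 54.4% of genes were called, 18 of 28 replication genes rose and none fell (background 42.2% higher), and from E14.5 to E15.5, when 30.7% were called, 17 fell (background 13.4% lower). The replication sum was 2502 to 3045 TPM at E12.5, 3708 to 3919 TPM at E13.5, 1786 to 2451 TPM at E14.5 and 1515 to 2046 TPM at E15.5, so it was highest at E13.5. Against the mean of the neighbouring steps, 5434 genes differed (40.3%), 36.2% of them higher with TPM as deposited and 46.8% higher after quantile normalization. At 2-fold, 519 were higher (3.85%) and 643 lower (4.77%). By the rule the largest were Malat1, Lars2, Fos, Egr1, Gria2 and Fosb on the higher side and Vax1, Six3, Dlx2, Nkx2-1, Gucy1a3 and Olig2 on the lower side. Lars2 was not called between E13.5 and E14.5 (1.33 ± 0.82), and its E12.5 libraries stood at 10360, 331.2 and 4857 TPM.

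**Figure D5:**
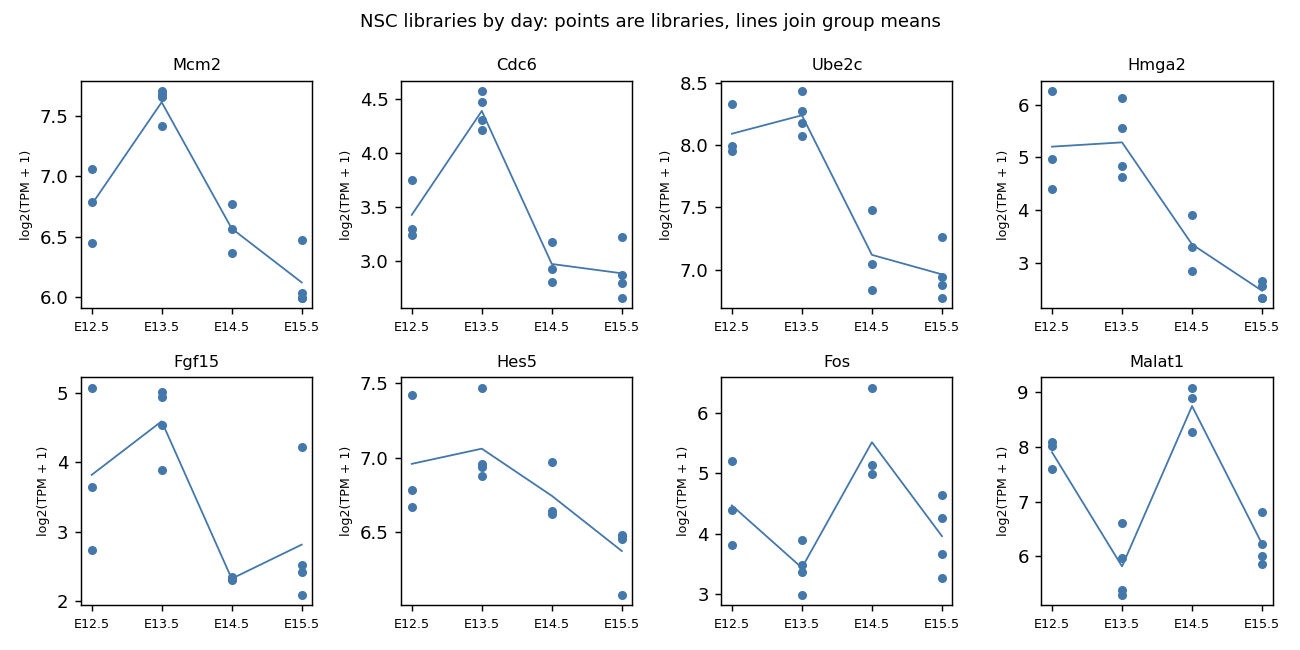
log2(TPM + 1) of 8 genes in NSC libraries from E12.5 to E15.5, with 1 point per library and lines joining group means. Group means of Cdc6 and Mcm2 are highest at E13.5, those of Malat1 and Fos are lowest at E13.5 and highest at E14.5, and that of Hmga2 is lowest at E15.5.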

How the data were processed

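The deposited values are TPM per gene, which the authors estimated with kallisto 0.43.0 (builds listed are mm10 and GRCm38.p2), per the submitters' processing notes. Reads were single-ended and 50 bases long per the labels' protocols, so near-identical family members are uncertain. TPM sum to 1000000 in each library, so a rise in some genes lowers others, and no intervals that need counts were computed.

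limma 3.58.1 in R 4.3.3 was fitted to log2(TPM + 1), which understates changes of low genes, with 1 mean for each of 23 groups over 70 libraries, a variance trend and 47 residual degrees of freedom. Benjamini-Hochberg adjustment ran over 13481 genes. The rule for named genes took the 12 largest called differences in each direction (6 for differences between steps) whose higher side averaged 10 TPM or more, with a unique regular symbol and, for the day itself, no overlap. Members of 39 gene lists were named in addition, chosen after their values were seen, and some members are not reported here. Members and lists were chosen with earlier results of these data known. Coordinates of genes are from GENCODE M21 and promoters from RefSeq. On simulated data for NSC E14.5 against E13.5 with 13481 genes, 96% of 100 genes changed by 1 and 70% of 100 changed by 0.5 (log2) were called, with 6 false calls. The simulation drew independent normal noise with the same spread per gene in all groups, and changed only genes above a set level. It checks the code and does not give the error rate on these libraries.

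Alternatives covered the pseudocount, filter, scaling, variance model, weights, a sex term, replicate blocks and the omission of single libraries. Restricting E13.5 to replicates 1 and 4, and E14.5 to replicate 1, were 2 settings added once values had been seen. The promoter search first looked at windows of 250 and 300 bases with 4 motifs. The 280-base window and the added TTCGAA string were tried after counts had been seen, and 250 bases was kept as the main window.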

Additional observations from a re-analysis of the deposited data

Results flagged for a closer look

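The following genes differed between NSC and BP in their change from E13.5 to E14.5, by limma's test of the difference of differences at an adjusted p below 0.05. Of 57 genes chosen for this listing, 40 differed, against 34.2% of all genes tested. Mki67 and Fn1, whose steps in NSC and BP are compared elsewhere in the text, were not among the 57. This count is set by the choice of genes, since 12 were taken for the largest such differences and others for a large NSC step. Genes with a higher step in NSC were Gabra2 (3.06), Malat1 (2.44), Zfp946 (2.24), Zfp942 (2.18), Zfp386 (2.17), Hmgn5 (2.14), Gria2 (2.05), Snap25 (1.90), Cenpf (1.57), Ccdc80 (1.54), Kif20b (1.44), Nr4a3 (1.14), Nfib (1.14), Camk2b (1.00), where each value is the NSC log2 difference minus the BP log2 difference. Genes with a lower step in NSC, on the same scale, were Ttr (-5.03), Grik3 (-3.33), Dlx2 (-2.60), Vax1 (-2.55), Nkx2-1 (-2.34), Six3 (-2.30), Fgf15 (-2.17), Otx2 (-1.79), Olig2 (-1.75), Ntn1 (-1.75), Zic4 (-1.47), Wnt8b (-1.40), Ccnd2 (-1.31), Ptch1 (-1.26), Ccnd1 (-1.22), Hmga2 (-1.21), Mcm3 (-1.15), Notch1 (-1.13), Hes1 (-1.05), Mcm2 (-1.02), Hes5 (-0.94), Rrm2 (-0.88), Sox9 (-0.70), Lef1 (-0.64), Plk1 (-0.60), Pcna (-0.48). Without E13.5 replicate 2, Nkx2-1 no longer passed this test (-1.30).

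In the 4 E13.5 libraries, 1 library stood apart by Dixon's criterion for Nkx2-1 (76.71 TPM in replicate 2), Vax1 (30.24 TPM in replicate 2), Fosb (6.266 TPM in replicate 4), Cdkn1b (126.4 TPM in replicate 1), Hes5 (175.9 TPM in replicate 1), Gpx3 (16.17 TPM in replicate 2), Tbr1 (192.4 TPM in replicate 2), Cntn2 (90.85 TPM in replicate 1). It also did for summed levels, namely heterochronic and early progenitor genes (895 TPM in replicate 1), oligodendrocyte precursor genes (83.52 TPM in replicate 2), erythroid genes (242.5 TPM in replicate 1). In all 196 genes and 39 lists were examined, and chance flags about 1 in 20 groups.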

How the results depend on the processing

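The alternatives were followed for 160 called genes, 154 of them under a 5 TPM filter and 158 with E14.5 replicate 1 alone. In these fits only Dcx changed direction, at -0.025 with E14.5 replicate 1 alone, where 62 others lost their call. The count of 5501 genes became 3549 (1713 higher) on the 7 libraries alone and 2441 (931 higher, 1510 lower, 112 at least 2-fold higher) with E14.5 replicate 1 alone, where the lone library is assumed to vary like other groups. Leaving out each library gave 3974 to 5570 genes changed, 1943 to 3000 higher and 2031 to 2708 lower, with 183 to 425 at least 2-fold higher. The highest 2-fold count, 425 against 255, came without E14.5 replicate 1. Counts at 2-fold followed the pseudocount by construction: with 0.1 they were 485 higher and 256 lower, and 439 lower for NSC against BP. With 5 they were 80 and 63, then 328 and 80 for NSC against BP, and 218 and 310 against the neighbouring days. Array weights gave 408 at least 2-fold higher.

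For NSC against BP, leaving out each library gave 3541 to 5066 genes, 1705 to 2274 higher and 1642 to 2960 lower, with 543 to 862 and 161 to 411 at 2-fold. The lowest counts of lower genes, 1642 and 161, came without BP E13.5 replicate 1, and 411 came without BP E13.5 replicate 2. Differences in summed level that changed sign with median ratio scaling were upper layer (-34.67 TPM), patterning (-45.49 TPM) and mitochondrial genes (-427.7 TPM). Over single libraries left out, summed differences that changed sign ranged from -477.3 to 953 TPM for radial glia, -234.8 to 116 for proneural, -39.15 to 38.86 for upper layer, -76.32 to 193 for patterning, -77.21 to 77.85 for astroglia, -581.1 to 112.2 for imprinted and -978.5 to 5020 for mitochondrial genes. The cause was not tested.

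With the replicate number as a block, 5283 genes were called (2686 higher, 2597 lower). Deviations of same-numbered libraries correlated at 0.009, -0.168 and -0.183, and those of differently numbered libraries at -0.263 to 0.357. These few values depend on one another, since deviations were taken from small group means. They cannot decide whether the numbers pair the libraries. TPM give no depth, so limits of detection could not be computed.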

Other observations

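Metabolic genes were described last. Of 20 cholesterol synthesis genes, 12 were lower at E14.5 and 2 higher, against backgrounds of 19.9% and 20.9%, or 6 and 1 without E14.5 replicate 3. Of 18 glycolysis genes, 9 were lower and 2 higher, or 5 and 1 without that library. Ldha lost its call without it.

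Among 27 chromatin regulators 12 fell and 5 rose, or 11 and 3 without E14.5 replicate 3. Dnmt1, the maintenance DNA methyltransferase, went from 150.1 to 174.5 TPM to 95.49, 92.99 and 102.6 TPM (-0.76 ± 0.10), and Dnmt3a fell by 0.71. Actl6b, the neuronal BAF complex subunit, rose by 1.08, and its progenitor counterpart Actl6a fell by 0.27, a call lost without E14.5 replicate 3. Of 15 imprinted growth genes 6 fell and 2 rose. Mest fell by 1.13 and Peg10 by 1.27, while the noncoding RNA Meg3 rose by 1.24. Fn1, the matrix protein fibronectin, fell from 43.19 to 65.05 TPM to 22.11, 26.79 and 22.8 TPM (-1.15 ± 0.21) and its step was 1.84 lower than in BP, where Fn1 rose by 0.69.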
